A study of Mus musculus with 6 samples.

Results

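Polyamine metabolism was read in the gastrocnemius of male C57BL6J mice through 10 genes, namely Odc1, Amd1, Amd2, Srm, Sms, Sat1, Smox, Paox, Oaz1 and Azin1. The members are the enzymes that make and recycle the polyamines and the antizyme system that controls them. They were listed by name, with earlier results of these data known. These are 10 of the 49315 genes in the count table, each matched 1 row, and all 10 were among the 15847 genes that passed the filter on low counts.

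The study asked what constant activity of AHR, the aryl hydrocarbon receptor that switches genes on once a ligand binds it, does to skeletal muscle. Adeno-associated virus of serotype 9 was injected into the gastrocnemius at 5 months of age, and the muscle was taken 5 months later for poly(A)-selected RNA sequencing. The AAV9-HSA-CAAHR group (libraries 31, 34 and 36) received mouse AHR lacking its ligand-binding domain, which is active without a ligand. The AAV9-HSA-GFP group (libraries 42, 43 and 46) received the green fluorescent protein ZsGreen1, so the controls also carried a virus and a foreign protein, and uninjected muscle is not part of the comparison. Expression of either transgene was driven by the promoter of human skeletal actin (HSA), a gene of muscle fibres, while the RNA came from all cells of the tissue. Each group had 3 libraries of male mice, with no allele altered in the genome.

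The libraries held 43432994 to 58825752 counts over all genes. Levels are given as CPM, counts scaled to a common library total, after TMM scaling, with the mean ± SD of n = 3 libraries. Fold changes are of CAAHR against GFP with their standard error (SE), on the log2 scale unless a fold is named. Rose and fell are meant in that sense. Without uninjected libraries, a lower level in CAAHR and a higher level in GFP muscles cannot be told apart for any gene. All CAAHR libraries lay above all GFP libraries for Ahr (16.7 ± 6.44 against 2.29 ± 0.370 CPM; edgeR adjusted p = 0.00229) and for its target Cyp1a1 (1476 ± 227 against 6.79 ± 0.943 CPM; edgeR adjusted p = 1.11e-07). The transcripts of 10 fast fibre genes were abundant in each library, with a sum of 143853 to 207554 CPM. CAAHR 34 stood apart from the other CAAHR libraries. Its 9 slow fibre transcripts summed to 649 CPM against 2783 in CAAHR 31 and 2518 in CAAHR 36, whereas its Ahr, at 22.8 CPM, was the highest of the 6. For members whose call changed without this library, the fit without it is also given.

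Putrescine, spermidine and spermine are small positively charged molecules that bind RNA, DNA and membranes and that growing cells need. Ornithine decarboxylase (Odc1) makes putrescine from ornithine, S-adenosylmethionine decarboxylase (Amd1, Amd2) supplies the aminopropyl donor, and the synthases Srm and Sms add the aminopropyl groups that give spermidine and spermine. Sat1 acetylates the polyamines, Paox oxidises the acetylated forms and Smox oxidises spermine directly, so that these enzymes run the pathway backwards. Antizyme (Oaz1) binds ornithine decarboxylase and sends it to the proteasome, and the antizyme inhibitor (Azin1) occupies antizyme in its place. In muscle the pathway is known for following androgen, growth and fibre mass.

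AHR with its partner ARNT binds DNA at a core of GCGTG, and Myc with Max, known to drive Odc1, binds CACGTG. Both were searched on both strands (GCGTG reads CACGC on the other strand, CACGTG is its own complement) in the RefSeq promoter windows of GRCm38.p6, which run from 250 bases before to 50 bases after a start. A window was found for 8 of the 10 members. At least 1 GCGTG stood in a window of 5 of those 8 members, namely Odc1, Amd1, Sms, Paox and Oaz1. Counted by window, it stood in 6 of their 10 windows and in 32.4% of all 32851 windows. The Paox windows overlap and hold the same match, which is counted in each. Sms and Paox had more than 1 window, and no share by gene was computed for all genes. CACGTG stood in 1 of the 10 windows, that of Sms, and in 7.15% of all windows. The rest of each gene, its introns included, was not searched, so no CACGTG in the Odc1 window speaks for that window only. The stretches upstream of the gene are shown for Odc1 and Sms, the members that passed the test, and for Oaz1, which carried as many GCGTG letters as Odc1 and whose level did not pass it. GCGTG or CACGC is in capitals in Odc1 (chr12:17544623-17544793, plus strand) and Oaz1 (chr10:80826406-80826655, plus strand), and CACGTG in Sms (chrX:157492288-157492537, minus strand).
Odc1: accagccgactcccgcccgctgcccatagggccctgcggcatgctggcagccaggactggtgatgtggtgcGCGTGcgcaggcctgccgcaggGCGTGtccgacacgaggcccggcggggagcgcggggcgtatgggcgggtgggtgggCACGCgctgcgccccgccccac
Sms: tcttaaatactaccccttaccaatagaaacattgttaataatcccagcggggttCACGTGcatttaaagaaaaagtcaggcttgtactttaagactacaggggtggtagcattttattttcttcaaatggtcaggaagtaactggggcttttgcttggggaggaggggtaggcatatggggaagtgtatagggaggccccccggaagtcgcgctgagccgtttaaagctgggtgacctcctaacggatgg
Oaz1: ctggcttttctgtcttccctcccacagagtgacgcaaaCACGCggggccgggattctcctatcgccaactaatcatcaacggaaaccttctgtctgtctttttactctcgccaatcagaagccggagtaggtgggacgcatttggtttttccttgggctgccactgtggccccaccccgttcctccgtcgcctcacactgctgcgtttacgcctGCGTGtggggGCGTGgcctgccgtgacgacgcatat
The Odc1 window and the Oaz1 window held 3 matches each, and 11.1% of all windows held at least 2. In the Sms stretch shown there was no GCGTG, although the window of another RefSeq start inside the gene held 3. Odc1, the member with the largest fall, and Oaz1, with no detectable change, thus carried the same number. A match is a description of the letters, not a binding site.

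Levels were compared between members per kilobase of exon (RPKM). In AAV9-HSA-GFP muscles Amd1 was by far the most abundant, at 437 ± 69.8 RPKM, followed by Oaz1 at 162 ± 16.4, Smox at 111 ± 42.7 and Odc1 at 88.8 ± 21.2 RPKM. Sms reached 29.3 ± 1.79 RPKM. The other members were low, from Sat1 at 7.94 ± 0.480 RPKM through Azin1 at 6.84 ± 0.400, Amd2 at 5.50 ± 0.816 and Srm at 4.69 ± 0.246 down to Paox at 0.932 ± 0.185 RPKM. Of the neighbours in this order, Oaz1 with Smox and Smox with Odc1 overlapped in their libraries and could not be ranked. In AAV9-HSA-CAAHR muscles the highest 5 were Amd1 at 289 ± 84.2, Oaz1 at 169.6 ± 28.6, Smox at 46.2 ± 16.1, Odc1 at 31.01 ± 2.95 and Sms at 18.7 ± 3.10 RPKM, and no neighbours among these overlapped. Azin1, Sat1, Srm and Amd2 followed between 5.997 ± 1.43 and 3.49 ± 1.47 RPKM with overlapping neighbours, and Paox was again last at 0.856 ± 0.0687 RPKM. The antizyme transcript thus exceeded that of its target in both groups.

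**Figure D1:**
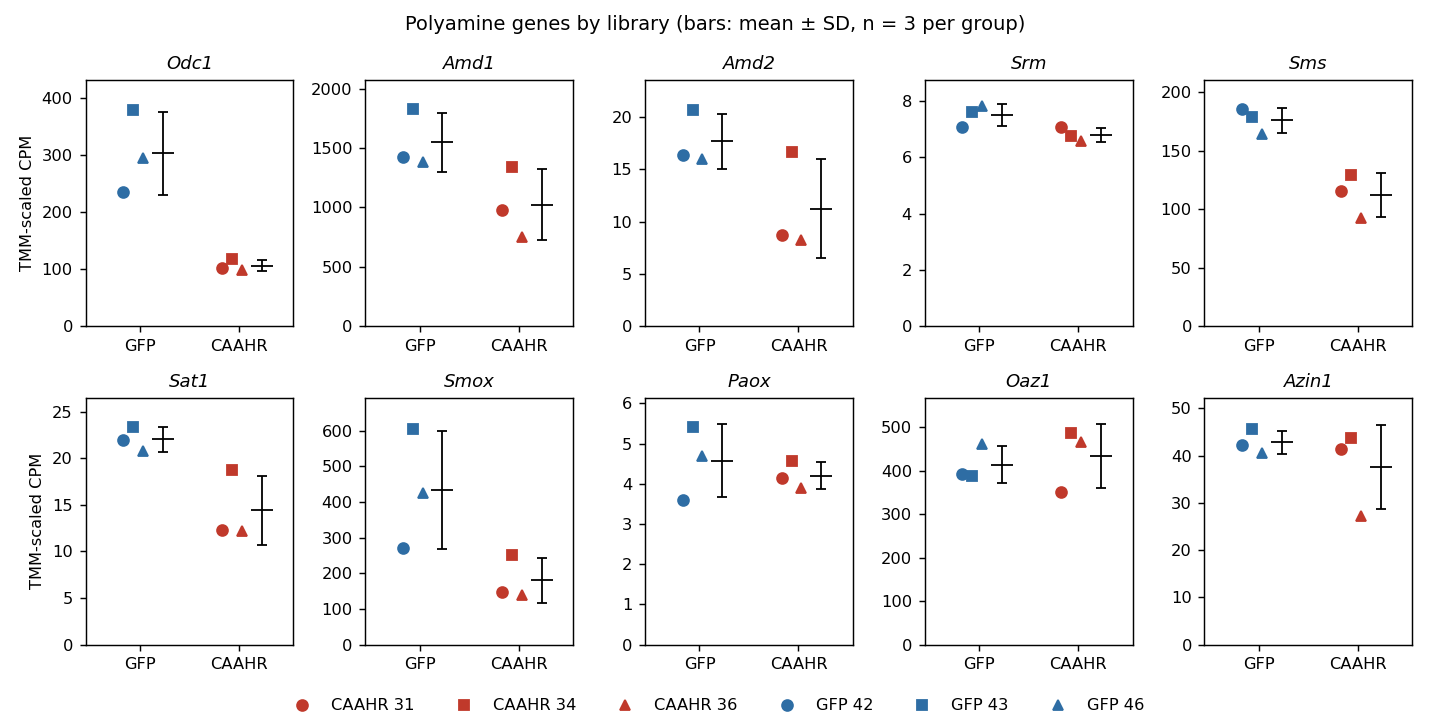
TMM-scaled CPM of the 10 polyamine genes (y axis, from 0, a separate scale for each gene) in the 3 GFP libraries (blue) and the 3 CAAHR libraries (red), with the mean ± SD as bars. Odc1 lay at 98.3 to 117 CPM in CAAHR and 234 to 378 CPM in GFP muscles, whereas Oaz1 and Paox overlapped between the groups.

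Polyamine transcripts were lower in AAV9-HSA-CAAHR muscles at Odc1 and Sms, the 2 members that passed an edgeR adjusted p of 0.05. DESeq2 called 5 members, these and Amd1, Sat1 and Smox, and limma-voom with sample weights called 6, with Amd2 added, all lower. Over all genes DESeq2 called 12.6% of those it adjusted and limma-voom 9.22%. Over all genes tested 7.6% passed, 4.57% as lower and 3.04% as higher, and 2.51% passed with a log2 fold change below -1, as Odc1 did. At an unadjusted p under 0.05, 6 of the 10 members were lower (Odc1, Amd1, Amd2, Sms, Sat1 and Smox), against 12.6% of all genes lower and 23.9% in either direction. All CAAHR libraries lay below all GFP libraries for 6 members (Odc1, Amd1, Srm, Sms, Sat1 and Smox). Among all genes 14.9% lay below in this way, 15% above and 29.9% either way. In the fit 9 members had a lower estimate and Oaz1 a higher one, and their median log2 fold change was -0.60 against 0.01 for all tested genes.

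Odc1 (ENSMUSG00000011179, chr12:17544794-17551505, plus strand, GRCm38), the gene of the first and rate-limiting enzyme, changed most. It reached 101.4, 117 and 98.3 CPM in CAAHR libraries 31, 34 and 36, and 234, 378 and 294 CPM in GFP libraries 42, 43 and 46. The CAAHR libraries lay close together and the highest of them lay far below the lowest GFP library. Odc1 fell 2.86-fold (95% CI 2.19 to 3.73), from 302 ± 72.2 to 105.6 ± 10.03 CPM (log2 fold change -1.52 ± 0.17 SE; edgeR adjusted p = 0.00138). The call held when each library was left out in turn, with edgeR adjusted p between 0.00099 and 0.0119. Without CAAHR 34 the log2 fold change was -1.61.

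The decarboxylase that supplies the aminopropyl donor is encoded by Amd1 (ENSMUSG00000075232, chr10:40287458-40302186, minus strand) and by Amd2 (ENSMUSG00000063953, chr10:35708675-35711892, minus strand), which lie on the same chromosome and are close copies. Amd1 had 977, 1340.3 and 749 CPM in CAAHR libraries 31, 34 and 36, and 1425, 1833 and 1386 CPM in GFP libraries 42, 43 and 46. The groups did not overlap, but CAAHR 34 came within reach of the lowest GFP library. The difference did not pass in edgeR (log2 fold change -0.60 ± 0.21 SE, 95% CI -1.08 to -0.12; edgeR adjusted p = 0.125), but did in DESeq2 (adjusted p = 0.0244) and limma-voom (adjusted p = 0.0409). Amd2 had 8.74, 16.7 and 8.27 CPM in CAAHR libraries 31, 34 and 36 against 16.4, 20.7 and 16.0 CPM in GFP libraries 42, 43 and 46. Here CAAHR 34 lay inside the GFP range, and Amd2 did not pass either (-0.66 ± 0.28 SE, 95% CI -1.31 to -0.0037; edgeR adjusted p = 0.207; DESeq2 adjusted p = 0.0606), except in limma-voom (adjusted p = 0.0394). Without CAAHR 34 both passed in edgeR, Amd1 at -0.85 (edgeR adjusted p = 0.00997) and Amd2 at -1.07 (edgeR adjusted p = 0.00135). Of the 150-base words in the exons of Amd2, 61.6% also occur in Amd1, so their separate counts are uncertain. Counted as 1 gene they gave -0.60 (edgeR adjusted p = 0.126), and the log2 ratio of Amd1 to Amd2 was 6.54 ± 0.24 in CAAHR and 6.45 ± 0.016 in GFP muscles, a difference of 0.10 (exact two-sided permutation test, p = 0.7).

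Of the synthases, Sms passed the test and Srm did not. Srm (ENSMUSG00000006442, chr4:148591503-148594993, plus strand), which makes spermidine, had 7.06, 6.77 and 6.56 CPM in CAAHR libraries 31, 34 and 36, and 7.07, 7.59 and 7.84 CPM in GFP libraries 42, 43 and 46. The groups touched without overlapping, and the fitted difference was -0.14 ± 0.12 SE with a 95% CI of -0.40 to 0.12 (edgeR adjusted p = 0.513). Sms (ENSMUSG00000071708, chrX:157443855-157492287, minus strand), which makes spermine, had 115, 129 and 92.2 CPM in CAAHR libraries 31, 34 and 36, and 186, 178 and 164 CPM in GFP libraries 42, 43 and 46. A clear gap lay between the groups. Sms fell 1.57-fold (95% CI 1.28 to 1.92), from 176 ± 10.7 to 112 ± 18.6 CPM (-0.65 ± 0.13 SE; edgeR adjusted p = 0.0177). This call was held less firmly than that of Odc1, since without CAAHR 31, CAAHR 36, GFP 42 or GFP 43 the edgeR adjusted p was 0.0548, 0.0511, 0.0551 or 0.0547, with log2 fold changes between -0.77 and -0.53 over all 6 such fits. A processed copy, Sms-ps, shares 15.5% of the Sms words but held 355 counts in all libraries together. The difference between the Srm and Sms changes was not tested.

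**Figure D2:**
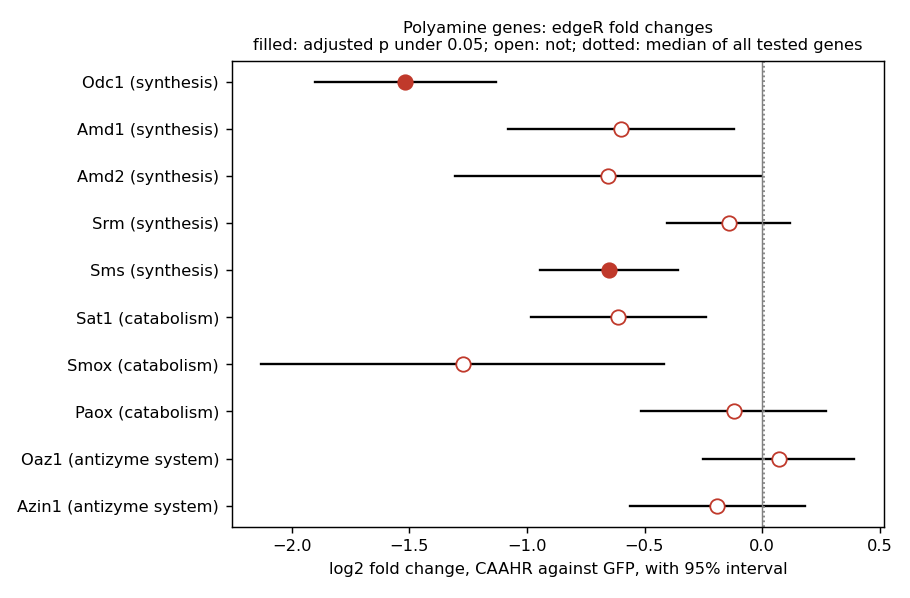
Log2 fold change of CAAHR against GFP muscles (x axis) for each member (y axis), with its 95% interval as a line and filled points for an edgeR adjusted p under 0.05. Odc1 (-1.52) and Sms (-0.65) are filled, Smox has the widest interval (-2.13 to -0.42), and the intervals of Srm, Paox, Oaz1 and Azin1 span 0.

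Whether the catabolic genes Smox and Sat1 passed depended on the tool, as neither did in edgeR and both were called lower by DESeq2 and limma-voom. Smox (ENSMUSG00000027333, chr2:131491496-131525922, plus strand), the spermine oxidase, had 147, 252 and 139.7 CPM in CAAHR libraries 31, 34 and 36. In GFP libraries 42, 43 and 46 it had 272, 604 and 426 CPM, so GFP 42 and CAAHR 34 almost met while the others lay far apart. Its estimate was 2.41-fold lower with a wide 95% CI of 1.33 to 4.37 (-1.27 ± 0.35 SE; edgeR adjusted p = 0.0866, DESeq2 adjusted p = 0.0301, limma-voom adjusted p = 0.027). In edgeR Smox passed without CAAHR 34 (-1.60, edgeR adjusted p = 0.0448) and without GFP 42 (-1.52, edgeR adjusted p = 0.037). Sat1 (ENSMUSG00000025283, chrX:155213132-155216449, minus strand), the acetyltransferase, had 12.3, 18.7 and 12.2 CPM in CAAHR libraries 31, 34 and 36 and 21.9, 23.4 and 20.8 CPM in GFP libraries 42, 43 and 46. The groups did not overlap, with CAAHR 34 again the nearest to GFP, and the difference was just outside the edgeR threshold (-0.61 ± 0.16 SE, 95% CI -0.98 to -0.24; edgeR adjusted p = 0.0553), with adjusted p = 0.00923 in DESeq2 and 0.0169 in limma-voom. Without CAAHR 34 Sat1 passed in edgeR at -0.85 (edgeR adjusted p = 0.00125). 

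Paox (ENSMUSG00000025464, chr7:140115799-140137224, plus strand), the oxidase of acetylated polyamines, had 4.13, 4.57 and 3.90 CPM in CAAHR and 3.61, 5.41 and 4.70 CPM in GFP libraries, in the same order of libraries. The groups overlapped and the 95% CI of the difference was -0.51 to 0.27 (-0.12 ± 0.18 SE; edgeR adjusted p = 0.741). Its counts are uncertain, since 20.4% of its words recur in Gm19680 and 142 exon bases overlap Echs1 on the opposite strand, and the sources do not say whether the library kit marked strand. Within a library, the log2 ratio of Smox to Paox counts was 5.15, 5.78 and 5.16 in CAAHR libraries 31, 34 and 36, and 6.23, 6.80 and 6.50 in GFP libraries 42, 43 and 46. The ratio was lower in CAAHR by 1.15 on the log2 scale without overlap, at the smallest p that 3 against 3 libraries allow (exact two-sided permutation test, p = 0.1).

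The antizyme system was not detectably different. Oaz1 (ENSMUSG00000035242, chr10:80826656-80829290, plus strand) had 350, 486 and 466 CPM in CAAHR libraries 31, 34 and 36, and 391, 387 and 462 CPM in GFP libraries 42, 43 and 46. The groups overlapped, with a fitted difference of 0.07 ± 0.14 SE and a 95% CI of -0.25 to 0.39 (edgeR adjusted p = 0.827), and its sign turned with upper-quartile scaling (-0.0035). Azin1 (ENSMUSG00000037458, chr15:38487427-38519266, minus strand) had 41.5, 43.8 and 27.3 CPM in CAAHR libraries 31, 34 and 36, and 42.2, 45.5 and 40.6 CPM in GFP libraries 42, 43 and 46. Only CAAHR 36 lay clearly below the GFP libraries (-0.19 ± 0.16 SE, 95% CI -0.56 to 0.18; edgeR adjusted p = 0.541). For both genes the unadjusted p was above 0.05, and neither was called by DESeq2 or limma-voom.

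Odc1 was set against Oaz1 within each library, since the antizyme protein removes the decarboxylase. The log2 ratio of their counts was -1.79, -2.05 and -2.24 in CAAHR libraries 31, 34 and 36, and -0.74, -0.03 and -0.65 in GFP libraries 42, 43 and 46. The ratio averaged -2.03 ± 0.23 in CAAHR and -0.47 ± 0.38 in GFP muscles, a difference of -1.55 without overlap at the smallest p the design allows (exact two-sided permutation test, p = 0.1). The 3 ratios tested formed 1 family, and with a smallest p of 0.1 no adjustment could bring one under 0.05. These are transcript ratios and say nothing of protein.

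Slow fibre transcripts also differed between the libraries. The 9 slow fibre genes, with Myh7 and Tnni1 among them, summed to 2783, 649 and 2518 CPM in CAAHR libraries 31, 34 and 36 and to 228, 333 and 461 CPM in GFP libraries 42, 43 and 46. All 9 had higher estimates in CAAHR, 8 at an unadjusted p under 0.05, and 1 (Myh7b) passed the edgeR adjusted p, while DESeq2 called 8 and limma-voom 9 of them higher. Of 10 fast fibre genes 2 (Tnni2 and Tnnt3) fell in edgeR, 4 in DESeq2 and 3 in limma-voom. Their estimates were lower for 8 genes and higher for 2, namely Myh1 (0.997, edgeR adjusted p = 0.427) and Myh2 (1.38, edgeR adjusted p = 0.386). CAAHR 34 had the lowest slow fibre sum of its group and, for Odc1, Amd1, Amd2, Sms, Sat1 and Smox, the level nearest to GFP. It was not set apart by slow fibre transcripts alone. Of all libraries it also had the lowest sums of endothelial (217 CPM), fibroblast (324), adipocyte (299), Schwann cell (50.1) and macrophage genes (27.0 CPM). Its neutrophil, B cell and T cell sums were not the lowest. Which of these differences the member levels followed was not tested. Against the GFP mean, CAAHR libraries 31, 34 and 36 stood at -1.01, -0.08 and -1.09 log2 units for Amd2 and at -0.84, -0.24 and -0.85 for Sat1. For Odc1 the same values were -1.55, -1.34 and -1.59, so CAAHR 34 had most of the Odc1 difference but little of the Amd2 and Sat1 difference. For Sms they were -0.61, -0.45 and -0.93, for Smox -1.48, -0.71 and -1.56, and for Amd1 -0.65, -0.20 and -1.04. With the mean log2 level of the slow fibre genes as a covariate, Odc1 lost its call, at a log2 fold change of -1.39 ± 0.33 SE (95% CI -2.16 to -0.62; edgeR adjusted p = 0.08). In that fit Sms was at -0.29 ± 0.19 SE and Smox at -0.67 ± 0.70 SE, and Amd1, Amd2 and Sat1 at 0.02, 0.27 and 0.0011 log2 units, above 0. The covariate was -0.15 to 1.95 in CAAHR and -1.71 to -0.71 in GFP libraries, so slow fibre content and group did not overlap and cannot be told apart, and 0 members passed (1, Odc1, at an unadjusted p under 0.05). In whole muscle, fewer fibres of a type and less RNA in each cannot be told apart.

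**Figure D3:**
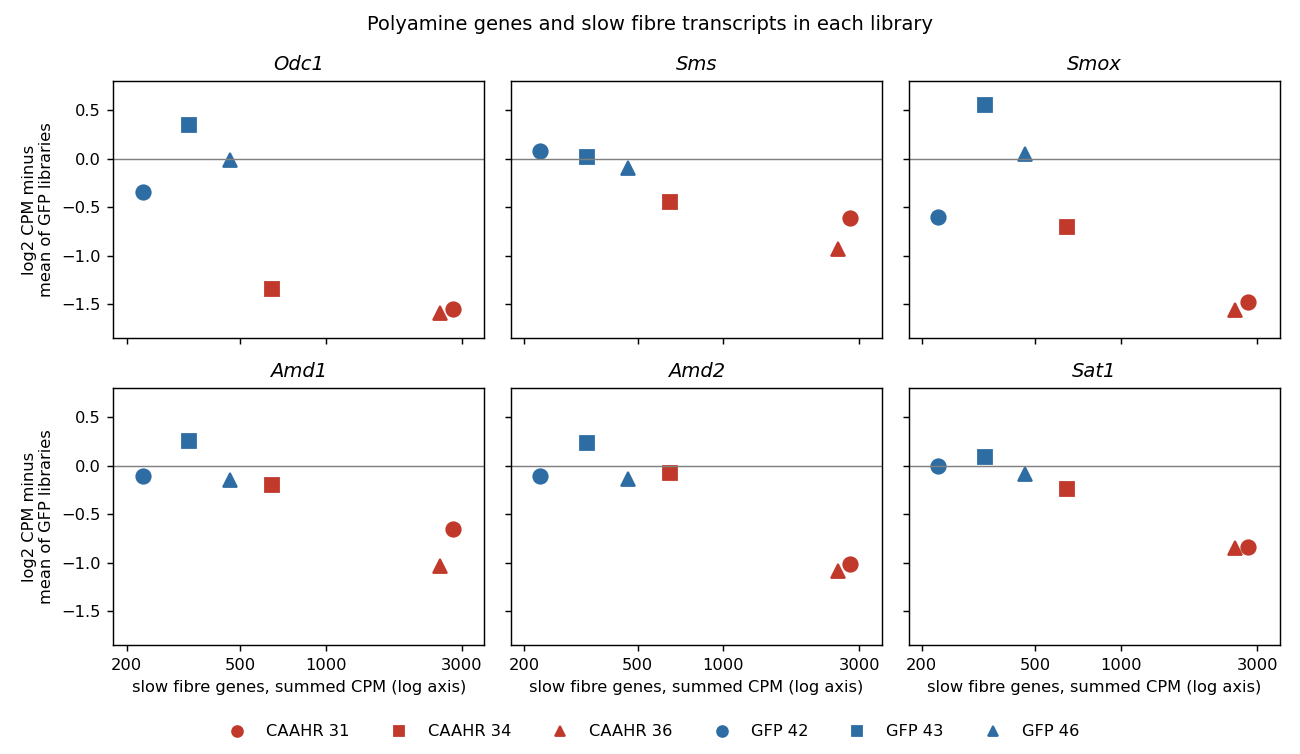
Level of 6 members in each library (y axis, log2 CPM minus the mean of the GFP libraries) against the summed CPM of 9 slow fibre genes (x axis, log axis), with CAAHR in red and GFP in blue. At 649 CPM of slow fibre transcripts CAAHR 34 sits at -1.34 for Odc1 but at -0.08 for Amd2.

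Immune transcripts also differed between the groups. None of these libraries is of uninjected muscle. From them alone, fewer immune transcripts in CAAHR and more in GFP muscles, whose vector carries a foreign protein, cannot be told apart. The study also measured selected immune genes by qPCR beside naive mice without virus. They were not lower in CAAHR than in those mice, which the study reads as a local immune response to AAV-GFP. Neutrophil genes summed to 3.13 to 4.09 CPM in CAAHR against 16.0 to 33.9 CPM in GFP libraries, with 6 of 7 tested genes called lower in CAAHR (7 by DESeq2, 5 by limma-voom). Genes of B and plasma cells summed to 11.2 to 19.8 against 145 to 579 CPM, with 5 of 8 called lower (7 by DESeq2, 2 by limma-voom), and those of T and NK cells to 1.08 to 1.73 against 2.65 to 9.33 CPM, with 1 of 3 called lower (1 by DESeq2, 2 by limma-voom). Macrophage genes summed to 27.0 to 46.2 against 54.3 to 118.7 CPM, with 0 of 9 called by edgeR, 7 lower at an unadjusted p under 0.05, 6 called lower by DESeq2 and 1 by limma-voom. GFP 43, which had the highest Odc1, Smox, Amd1, Amd2 and Sat1, also had the highest macrophage and B cell sums. Sms was highest in GFP 42, Srm and the neutrophil sum in GFP 46, and Oaz1 in CAAHR 34. No gene of these lists was at 0 in every library. Taking the immune genes out before scaling left the log2 fold changes of Odc1 and Sms at -1.52 and -0.65. That step does not remove the polyamine transcripts of immune cells, and their part in the result was not tested. Endothelial genes (217 to 340 CPM in CAAHR, 238 to 285 in GFP), fibroblast genes (324 to 570 against 454 to 566) and Schwann cell genes (50.1 to 82.5 against 80.3 to 138) had 0 calls by edgeR, with 1, 1 and 2 lower at an unadjusted p under 0.05, and DESeq2 called 0, 1 and 2 and limma-voom 0, 0 and 1. Adipocyte genes, at 299 to 464 against 376 to 465 CPM, had 3 of 8 called lower by each of the 3 tools. Most of that sum was Plin4 (264 ± 56.4 against 240 ± 59.5 CPM) and Fabp4 (104 ± 18.6 against 106 ± 30.5 CPM). The median log2 fold change of the 8 genes was -2.04, with 7 estimates lower and 1 higher.

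**Figure D4:**
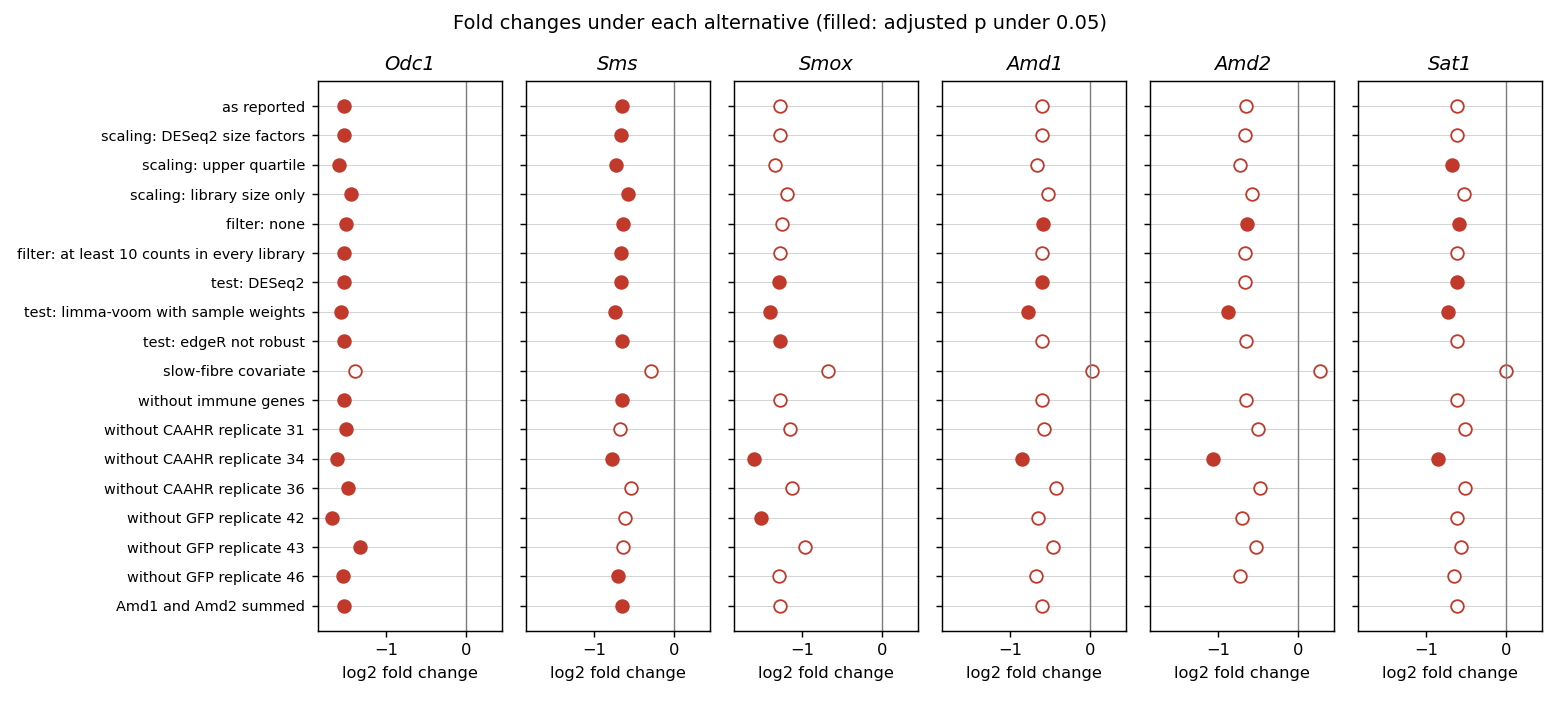
Log2 fold change of 6 members (x axis) under the reported fit and each alternative (rows), filled where the adjusted p was under 0.05. Odc1 is filled in all rows but the slow-fibre covariate, and Amd1, Amd2, Smox and Sat1 become filled without CAAHR 34.

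The wider pathway was read from 60 further genes in 7 lists of supply, transport, salvage, downstream use, regulators and muscle wasting, of which 49 were tested, 2 rose and 3 fell. These 5 calls are read against the 7.6% called over all genes, and the lists do not stand out from it by count. Of 12 genes of arginine and ornithine supply 10 were tested and 0 passed, with a median log2 fold change of -0.26, 3 lower at an unadjusted p under 0.05, 1 called lower by DESeq2 and 0 by limma-voom. Their smallest p values belonged to Aldh18a1, which makes the precursor of ornithine from glutamate (-0.65, edgeR adjusted p = 0.0681), and Gatm, which joins arginine to glycine for creatine (-0.62, edgeR adjusted p = 0.113). Of 11 genes of the methionine cycle and of methylthioadenosine salvage, which recovers the methionine spent in making spermidine and spermine, 10 were tested, with a median of -0.13. Adi1, a dioxygenase of that salvage, fell from 90.3 ± 5.88 to 61.2 ± 8.57 CPM (-0.56 ± 0.12 SE; edgeR adjusted p = 0.0197), a call lost with the slow-fibre covariate and without CAAHR 31, CAAHR 36, GFP 43 or GFP 46 (edgeR adjusted p = 0.0717, 0.0799, 0.0774 and 0.0565). Enoph1, which acts just before it in the salvage, had -0.40 (edgeR adjusted p = 0.0939).

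Among the transport genes 1 rose. Slc22a3, an organic cation transporter that carries polyamines among other substrates, had 5.18, 10.9 and 6.04 CPM in CAAHR libraries 31, 34 and 36 and 2.03, 1.08 and 0.642 CPM in GFP libraries 42, 43 and 46. It rose by 2.56 ± 0.46 SE on the log2 scale (edgeR adjusted p = 0.022), with the highest level in CAAHR 34, and lost its call without CAAHR 36 (edgeR adjusted p = 0.0588) or GFP 43 (edgeR adjusted p = 0.109). Of 9 transport genes 5 were tested, with a median of 0.04. Atp13a2, a lysosomal polyamine exporter, had -0.21 (edgeR adjusted p = 0.186), and Atp13a4 had no count in any library. Of 7 other polyamine enzymes and antizymes 4 were tested and 0 passed by edgeR, DESeq2 or limma-voom, with 0 at an unadjusted p under 0.05. Oaz2, another antizyme, had 233 ± 28.0 against 199.5 ± 15.9 CPM (0.22, edgeR adjusted p = 0.285), and Oaz3, the antizyme of germ cells, had 0.294 ± 0.0876 against 0.178 ± 0.0342 CPM (0.72, edgeR adjusted p = 0.348). The hypusine pathway, which uses spermidine to modify the translation factor eIF5A, had 0 of 4 passing by edgeR, DESeq2 or limma-voom, 0 at an unadjusted p under 0.05 and a median of 0.01. Dhps, the spermidine-using enzyme, had 0.24 (edgeR adjusted p = 0.216) and Eif5a2 -0.10 (edgeR adjusted p = 0.858).

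Among 5 regulators known to act on polyamine genes 1 fell and 1 rose. Myc, a transcription factor that drives Odc1 in growing cells, had 2.63, 4.41 and 3.26 CPM in CAAHR libraries 31, 34 and 36 and 7.42, 10.4 and 6.91 CPM in GFP libraries 42, 43 and 46. Myc fell from 8.25 ± 1.89 to 3.43 ± 0.902 CPM (-1.26 ± 0.22 SE; edgeR adjusted p = 0.0111), with GFP 43 highest as for Odc1, and lost its call with the slow-fibre covariate and without CAAHR 36 (edgeR adjusted p = 0.0537). Nfe2l2, the regulator of the oxidative stress response, rose from 35.4 ± 5.88 to 57.3 ± 2.76 CPM (0.69 ± 0.12 SE; edgeR adjusted p = 0.0107), a call lost with the covariate. Of 12 genes of muscle atrophy and denervation 11 were tested, with a median of 0.20. At an unadjusted p under 0.05, 2 were higher and 2 lower. DESeq2 called 2 higher and 1 lower, and limma-voom 1 higher and 2 lower. Gadd45a, a growth arrest gene induced by denervation, fell from 20.5 ± 3.96 to 9.43 ± 1.75 CPM (-1.12 ± 0.17 SE; edgeR adjusted p = 0.0065), likewise lost with the covariate. Myog, a muscle regulatory factor, had 1.02 and passed only in DESeq2 among the 3 tools (edgeR adjusted p = 0.0523, DESeq2 adjusted p = 0.00621, limma-voom adjusted p = 0.0541).

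**Figure D5:**
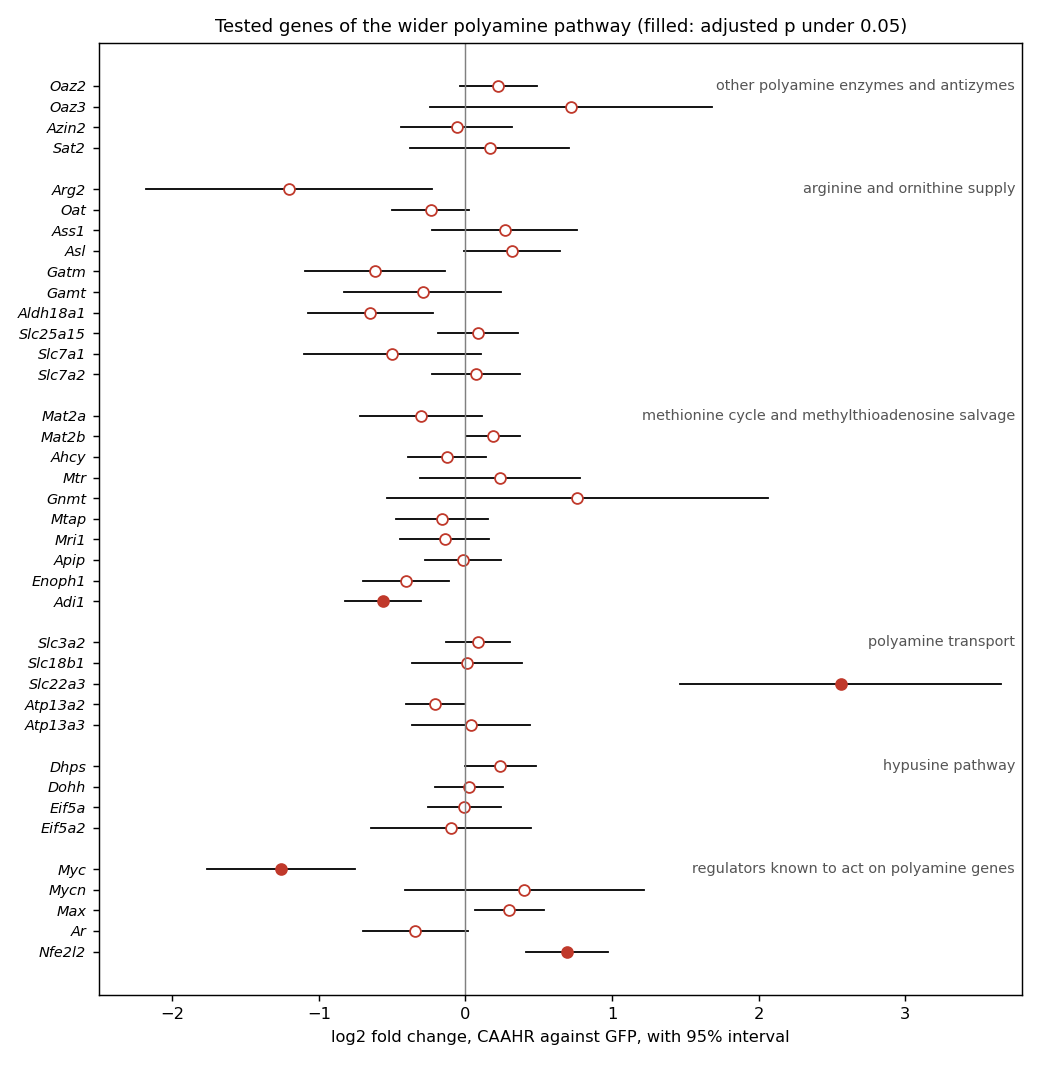
Log2 fold change of CAAHR against GFP (x axis) with its 95% interval for the tested genes of 6 lists around the polyamine pathway (y axis, lists named at the right), filled for an edgeR adjusted p under 0.05. Slc22a3 (2.56) and Nfe2l2 (0.69) are filled above 0, and Myc (-1.26) and Adi1 (-0.56) below.

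The genes whose log2 CPM followed Odc1 most closely over the 6 libraries were Runx3 (Pearson r = 0.998), Arhgap45 (0.996), Cks1b (0.996), Sel1l3 (0.994) and Ubash3b (0.993). Their log2 fold changes were -3.27, -1.52, -1.16, -0.49 and -0.84, and Runx3 and Ubash3b were scarce, at 0.233 and 0.712 CPM over all libraries. For Sms they were Sorbs2 (Pearson r = 0.998), Pld5 (0.997), Nedd4l (0.995), Ralgds (0.993) and Gdap1 (0.992), with log2 fold changes of -0.97, -1.83, -0.78, -0.39 and -1.36. Each r rests on 6 libraries in groups of 3 that differ in level, so it largely restates that these genes were lower in CAAHR, and it is given as a description. The lists of Odc1 and Sms had no gene in common.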

How the data were processed

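Poly(A) RNA of 6 gastrocnemius muscles was sequenced as paired 150-base reads. The authors trimmed reads with Trimmomatic 0.36, aligned them to GRCm38 with STAR 2.5.2b and deposited raw counts per gene from featureCounts, keeping uniquely placed reads in exons. Per the study's methods strand was used in counting only for a stranded kit, and whether the kit was one is not given in the sources used here. For other assays the red part of the gastrocnemius was cut away and the rest frozen or used for mitochondria, and whether the RNA came from muscles so divided is not given either. Reads from the CAAHR vector and from the mouse's own Ahr both count as Ahr.

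The groups were compared with edgeR 4.0.16 (robust quasi-likelihood F test, filterByExpr, TMM; R 4.3.3), with Benjamini-Hochberg adjustment over all 15847 tested genes and a threshold of 0.05. The study itself used DESeq2. DESeq2 1.42.0, limma-voom (limma 3.58.1), other scalings and filters, a slow-fibre covariate and leaving out each library were alternatives. SEs came from the fold change and its F statistic, and 95% intervals from the t distribution. Log2 ratios were taken after adding 0.5 counts. Rows without a gene symbol (174, 0.0154% of counts) stayed in the fit. RPKM is TMM-scaled CPM per kilobase of the merged exons of the GENCODE annotation. Coordinates are those of GRCm38, and promoter windows are RefSeq's of GRCm38.p6. The procedure was tested on simulated data. Counts of any 2 replicates differed beyond what sampling gives (chi-square at least 23.7 times its degrees of freedom). The p-values measure the spread between these libraries, of which there are 3 a group. The members and gene lists were chosen with earlier results of these data known. The named genes were all members, Ahr and Cyp1a1, the called genes of each wider list filled up to 2 by smallest p, and for each called member the 5 genes most like it; marker genes named beside a result were chosen after their values were seen.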

Additional observations from a re-analysis of the deposited data

How the results depend on the processing

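Odc1 was called lower in 16 of 17 alternatives, with log2 fold changes of -1.67 to -1.32, and lost its call only with the slow-fibre covariate. Sms was called in 12 of 17. The number of members called, 2 as reported, became 5 without a filter, 5 with DESeq2, 6 with limma-voom and 0 with the slow-fibre covariate, and ranged from 1 to 6 when a library was left out (6 without CAAHR 34, and 1 without CAAHR 31, CAAHR 36 or GFP 43). The 1205 calls over all genes became 2470 without a filter, 1923 with DESeq2, 436 with the covariate and 530 to 1727 with a library left out. The 5 calls of the wider lists became 8 with library size only, 10 without a filter, 8 with DESeq2, 1 with the covariate and 2 to 8 with a library left out (8 without CAAHR 34, 2 without CAAHR 36 and 3 without GFP 43). The cause of these moves was not tested, although fits without a library rest on 5.

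Scaling moved the split of calls, from 481 higher and 724 lower to 358 and 990 with the upper quartile and to 876 and 600 with library size only, with medians over all genes of -0.06 and 0.09. Directions turned only where the reported difference had not passed: Oaz1 with the upper quartile (-0.0035) and without CAAHR 34 (-0.0285, range with a library left out -0.0285 to 0.20), Paox without GFP 43 (0.0155, range -0.26 to 0.0155), Eif5a2 without GFP 42 (0.0607, range -0.23 to 0.0607), and, with the covariate, Amd1 (0.0208), Amd2 (0.267), Sat1 (0.00112), Azin1 (0.154) and Eif5a2 (0.353). Leaving out a library gave log2 ratio differences of -1.69 to -1.33 for Odc1 to Oaz1, -1.36 to -1.001 for Smox to Paox and -0.0341 to 0.204 for Amd1 to Amd2, the last reversed at -0.0341 without CAAHR 31. Of the wider genes, Myc lost its call with the covariate and without CAAHR 36, Nfe2l2 and Gadd45a with the covariate, Slc22a3 without CAAHR 36 or GFP 43, and Adi1 with the covariate and without CAAHR 31, CAAHR 36, GFP 43 or GFP 46. Over all alternatives, 139 of 169 single-gene values of the members kept direction and side of the threshold, 17 came to pass it, 6 lost it and 7 turned. For the named wider genes, 201 of 222 kept both, 8 came to pass it, 11 lost it and 2 turned. With 3 libraries a group, the permutation tests cannot go below 0.1. The members with the lowest counts were Paox (174 to 261 a library) and Srm (316 to 415). Their SEs, 0.18 and 0.12, were below the 0.35 of Smox. No paired analysis was possible because CAAHR and GFP libraries carry different numbers.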
